A study of Mus musculus with 8 samples.

Results

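Kinesins are the motor proteins that move along microtubules, and the group described here was taken as every gene symbol of the deposited matrices that begins with Kif. This gave 45 symbols of 31053 genes. By textbook role, 14 were placed among the spindle kinesins, which build the mitotic spindle, move chromosomes or divide the cell, 16 among the transport kinesins and their carriers, and 15 in neither class. Not every symbol is a motor: Kifap3 is the cargo-binding subunit of kinesin-2, Kif1bp binds kinesins and Kif16bos is an antisense RNA.

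The cells are SN4741, a mouse line made from embryonic substantia nigra with a temperature-sensitive viral T antigen under a tyrosine hydroxylase promoter. Of the 8 libraries, 4, labelled wild type, came from cultures at the permissive temperature (37 °C) in 10% serum, and 4, labelled the same, from cultures moved to the non-permissive temperature (39 °C) in 0.5% serum for 48 hours, so temperature and serum cannot be told apart. All libraries hold the same line, which is reported to be clonal. The authors' karyotyping found it polyploid and unstable, with chromosome complements that differed from cell to cell. Copy number was not measured here. After filtering, 8550 cells at 37 °C and 9801 at 39 °C were kept, with 17166686 to 29633818 UMIs (unique molecular identifiers, counts of captured transcript molecules) in each library and 19125 cells deposited in all. Nothing in the labels says that the libraries of 1 temperature came from separate cultures, so p-values measure only the spread between these libraries.

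Of the markers used to check the labelled cell type, Nes and Sox2, genes of neural precursors, were at 462 and 54.8 CPM (counts scaled to a total of 1000000 UMIs) at 37 °C and at 110 and 77.1 CPM at 39 °C. Msi1, Pax6 and Fabp7 had at most 10 UMIs at either temperature and Hes5 had 0. Th, Slc6a3, Pitx3 and Ddc, which mark dopaminergic neurons, had at most 4 UMIs at either temperature, and Slc18a2, the fifth gene of that list, had 56 and 63. The list summed to 0.337 to 0.762 CPM in the 37 °C libraries and to 0.641 to 0.990 CPM in the 39 °C libraries. Col1a1 and Col1a2, collagens of mesenchymal cells, were at 1016 and 670 CPM at 37 °C and at 581 and 184 CPM at 39 °C. The other genes of that list were far lower. Pdgfrb was at 79.7 and 72.5 CPM (37 °C, then 39 °C), Col3a1 at 11.8 and 1.08 CPM and Pdgfra at 0.936 and 0.935 CPM. Dcn had 10 and 12 UMIs. The summed level of the 6 mesenchymal genes ran from 1752 to 1819 CPM in the 37 °C libraries and from 824 to 857 CPM in the 39 °C libraries. That of the 6 neural precursor genes ran from 486 to 595 and from 178 to 196 CPM, and that of 6 neuronal genes from 165 to 193 and from 79.3 to 97.7 CPM. The neuronal sum came from Stmn2, Map2 and Tubb3, at 111, 50.8 and 15.2 CPM at 37 °C. Rbfox3, Snap25 and Syt1 had at most 11 UMIs at either temperature. Glial genes summed to 7.10 to 7.97 and 8.64 to 9.22 CPM, with Olig2 and Sox10 at 0, and the part of any of these lists in the results below was not tested.

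A dividing cell assembles its spindle with bipolar motors that push the poles apart, minus-end motors that focus them, chromosome-bound motors and depolymerases that trim microtubule ends, and then splits by means of motors of the spindle midzone. Most genes of these motors are transcribed late in the cell cycle, under promoters that hold a CHR element (cell cycle genes homology region) and CCAAT boxes. Most transport kinesins carry organelles, vesicles, mRNAs and signalling complexes towards microtubule plus ends in dividing and resting cells alike, and neurons depend on them over long axons.

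The promoter letters were compared between the classes because the spindle kinesins moved together between temperatures. RefSeq start sites on GRCm38.p6 gave windows of 300 bases (250 before and 50 after the start) for 36 of the 45 symbols. Each window was searched on both strands. The usual CHR letters were TTTGAA, and a variant with a CpG inside it, TTCGAA, was counted as well. The box known by its letters CCAAT was searched as such. For E2F-like sites the letters were GCGGGAA, and a longer form of the site, GCGCCAAA, was counted as well. Letters of different motifs overlapped in none of these windows. CHR letters were in 11 of 13 spindle windows (84.6%), in 1 of 11 transport genes (9.09%), in 3 of 12 of the others and in 21.7% of all genes with a window. CHR and CCAAT letters stood together in 8 spindle genes (61.5%), in 0 transport genes, in 3 of the others and in 8.61% of all genes. E2F-like letters were in 2 spindle genes (Kif15 and Kif18a), in 0 transport genes, in 3 of 12 of the others and in 5.79% of all genes. A match is a description of these letters and was not tested as a binding site.

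The windows below run from 100 bases before the start to 50 after it, on the strand of the gene, with CHR, CCAAT and E2F-like letters in capitals (CHR on the opposite strand reads TTCAAA there, and a CCAAT box on that strand reads ATTGG). Kif11 (chr19:37376282-37376431, + strand), Kif22 (chr7:127042371-127042520, - strand) and Kif23 (chr9:61946750-61946899, - strand) are shown as spindle kinesins that fell at 39 °C and hold CHR and CCAAT letters in this stretch. They are not the 3 steepest falls. Kif18b (chr11:102925075-102925224, - strand) and Kifc1 (chr17:33890584-33890733, - strand) are shown because they hold the same letters and were among the 3 spindle kinesins that differed least. Kif13a (chr13:46929669-46929818, - strand) is shown as the transport kinesin with the largest rise among those of at least 10 CPM and none of the letters.
Kif11: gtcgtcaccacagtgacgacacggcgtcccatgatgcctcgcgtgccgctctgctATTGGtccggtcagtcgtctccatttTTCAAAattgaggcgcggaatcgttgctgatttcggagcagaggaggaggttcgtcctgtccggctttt
Kif22: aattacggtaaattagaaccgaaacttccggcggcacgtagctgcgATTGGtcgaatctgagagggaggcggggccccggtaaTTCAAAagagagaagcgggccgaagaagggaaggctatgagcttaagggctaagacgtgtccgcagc
Kif23: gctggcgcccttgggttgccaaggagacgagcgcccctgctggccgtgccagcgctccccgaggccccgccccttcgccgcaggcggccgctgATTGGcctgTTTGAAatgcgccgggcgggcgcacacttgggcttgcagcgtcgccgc
Kif18b: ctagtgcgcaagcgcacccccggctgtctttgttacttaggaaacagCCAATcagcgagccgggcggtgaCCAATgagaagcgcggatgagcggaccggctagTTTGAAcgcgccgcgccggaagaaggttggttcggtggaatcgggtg
Kifc1: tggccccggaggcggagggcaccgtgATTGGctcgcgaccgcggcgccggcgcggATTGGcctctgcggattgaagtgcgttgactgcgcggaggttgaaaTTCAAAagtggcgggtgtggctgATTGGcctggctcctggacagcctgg
Kif13a: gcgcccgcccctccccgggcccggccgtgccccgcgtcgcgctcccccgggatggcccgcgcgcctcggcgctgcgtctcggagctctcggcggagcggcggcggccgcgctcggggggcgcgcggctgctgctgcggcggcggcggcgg

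In Kif11 the CHR letters began 19 bases before the start and the CCAAT letters 45 bases before it. In Kif14 and Kif2c, which fell further than Kif11, CHR letters began 228 and 103 bases before the RefSeq start, and the Kif2c window held no CCAAT letters. Both windows lay inside the gene as annotated (chr1:136467598-136467897 for Kif14 and chr4:117178723-117179022 for Kif2c). The outer starts of these genes were not searched. In Kif18b a CHR began 4 bases after the start, with CCAAT letters beginning 53 and 30 bases before it. Kif18b, Kifc1 and Kifc5b, whose levels at 39 °C stayed nearest to those at 37 °C, held both CHR and CCAAT letters. Of the spindle kinesins that fell further, Kif11, Kif14, Kif22, Kif23 and Kif4 held both, while Kif2c, Kif15, Kif20b and Kif18a did not. Of the 12 spindle kinesins with both a window and enough counts for a test, Kif18a was without CHR letters. Kif20a had no window in the table used.

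**Figure D1:**
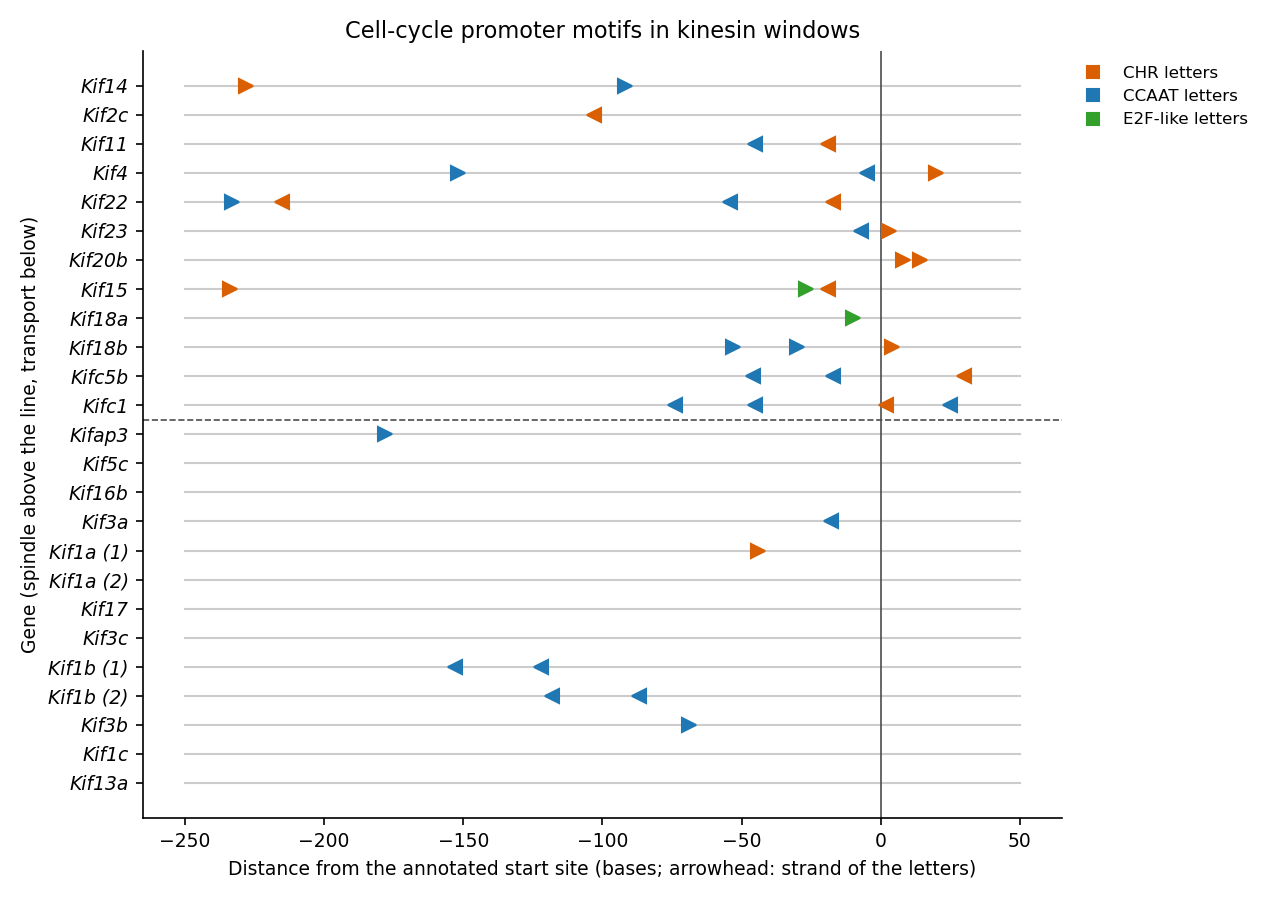
Position of the promoter letters in the windows of the spindle (above the dashed line) and transport kinesins (below it) with enough counts for a test, ordered in each class from the most negative to the most positive log2 fold change at 39 °C. The horizontal axis is the distance in bases from the annotated start site, colours mark the motif and arrowheads its strand; genes with more than 1 window are numbered, and CHR letters appear in 11 of 12 spindle genes and 1 of 11 transport genes.

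Of the 45 symbols, 41 had a mean of at least 1 UMI per library and were tested. Kif12 and Kif2b had 0 UMIs in all libraries, Kif28 had 1 at each temperature and Kif16bos had 1 at 37 °C. Over all 15810 genes tested, 30.5% were lower and 31.5% higher at 39 °C at an adjusted p under 0.05, and 3.62% were lower and 2.21% higher under the stricter rule, which asks for an adjusted p under 0.01 and a change of more than 1.5 on the log2 scale. By the stricter rule, 10 kinesins fell and 0 rose, all 10 of them spindle kinesins. At an adjusted p under 0.05, all 13 spindle kinesins tested were lower at 39 °C, while of 16 transport kinesins 7 were higher and 2 lower, and of 12 others 4 were higher and 3 lower. The median log2 fold change was -2.43 over the spindle kinesins, 0.19 over the transport kinesins and 0.02 over all genes tested. In bulk sums of this kind, fewer cells of a type and less RNA per cell cannot be told apart.

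Libraries at 37 and 39 °C gave separate ranges for 13 of 13 spindle kinesins, 9 of 16 transport kinesins and 7 of 12 others, against 56.7% of all genes tested. Summed over each class, the spindle kinesins made up 577 ± 19.2 CPM (SD, n = 4, after TMM scaling, as for all levels in whole libraries below) at 37 °C and 119 ± 5.26 CPM at 39 °C. The transport kinesins made up 799 ± 18.7 CPM and 877 ± 13.02 CPM. The remaining symbols made up 239.6 ± 5.48 CPM and 234 ± 4.75 CPM.

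Kif11, the bipolar motor of kinesin-5 that separates the spindle poles, is annotated at chr19:37376403-37421859 in GRCm38. Its level was 75.9, 75.9, 81.3 and 80.6 CPM in replicates 1 to 4 at 37 °C and 7.43, 5.91, 8.18 and 6.44 CPM at 39 °C. Every library at 39 °C lay below every library at 37 °C, an 11.2-fold fall (log2 fold change -3.49 ± 0.07 SE, adjusted p = 1.01e-17). Kif15, the kinesin-12 that can also hold the poles apart, was at 48.96 ± 1.01 CPM (SD, n = 4) and 11.03 ± 1.08 CPM (log2 fold change -2.15, adjusted p = 4.07e-16).

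Kif2c, which encodes the centromeric depolymerase MCAK (chr4:117159639-117182639), was at 18.1, 22.0, 22.1 and 22.7 CPM at 37 °C and at 1.82, 1.82, 1.56 and 1.74 CPM at 39 °C. The groups were apart by a 12.3-fold difference, with log2 fold change -3.62 ± 0.10 SE and adjusted p = 4.85e-16. Kif18a, which damps chromosome movements at kinetochores, went from 19.8 ± 0.32 CPM (SD, n = 4) to 5.23 ± 0.43 CPM (log2 fold change -1.92, adjusted p = 1.51e-14). Its close relative Kif18b, which trims astral microtubules, went from 24.5 ± 1.64 CPM to 17.6 ± 1.43 CPM (log2 fold change -0.49 ± 0.06 SE, adjusted p = 1.87e-06).

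Among the motors bound to chromosome arms, Kif4 (chromokinesin) went from 64.6 ± 3.31 CPM (SD, n = 4) to 7.23 ± 0.40 CPM, an 8.88-fold fall. Kif22 went from 27.5 ± 2.16 to 3.68 ± 0.42 CPM, a 7.38-fold fall. The minus-end motor Kifc1, which bundles microtubules at the poles, changed far less, from 21.2 ± 1.71 to 17.0 ± 0.21 CPM (log2 fold change -0.32 ± 0.06 SE, adjusted p = 0.000142). Its near-copy Kifc5b went from 6.39 ± 0.57 to 4.93 ± 0.17 CPM (log2 fold change -0.38 ± 0.09 SE, adjusted p = 0.00121). Of 411 stretches of 90 bases in the last 500 bases of the longest Kifc1 transcript, 37.5% occur in a Kifc5b transcript, so reads of Kifc1 may be lost or split and its level is uncertain. Of the 411 stretches at the end of Kifc5b, 0 occur in a Kifc1 transcript.

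The motors of the midzone and cytokinesis all fell. Kif14 (chr1:136466343-136531511), which recruits citron kinase to the midbody, was at 14.5, 14.1, 15.6 and 16.9 CPM at 37 °C and at 0.851, 0.719, 1.24 and 1.16 CPM at 39 °C. It had the largest fold difference among the kinesins, 15.1-fold (log2 fold change -3.92 ± 0.12 SE, adjusted p = 2.24e-15), on 99 UMIs at 39 °C.

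Kif20a, which carries the chromosomal passenger complex to the midzone, was at 43.6, 56.6, 52.8 and 50.2 CPM at 37 °C and at 3.23, 3.18, 4.85 and 2.58 CPM at 39 °C. This was a 14.5-fold fall (log2 fold change -3.85 ± 0.12 SE, adjusted p = 1.33e-15). Kif20a overlaps Cdc23 on the opposite strand, and reads were counted on the sense strand. Kif23, the motor of centralspindlin, fell 5.40-fold and Kif20b 4.95-fold.

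**Figure D2:**
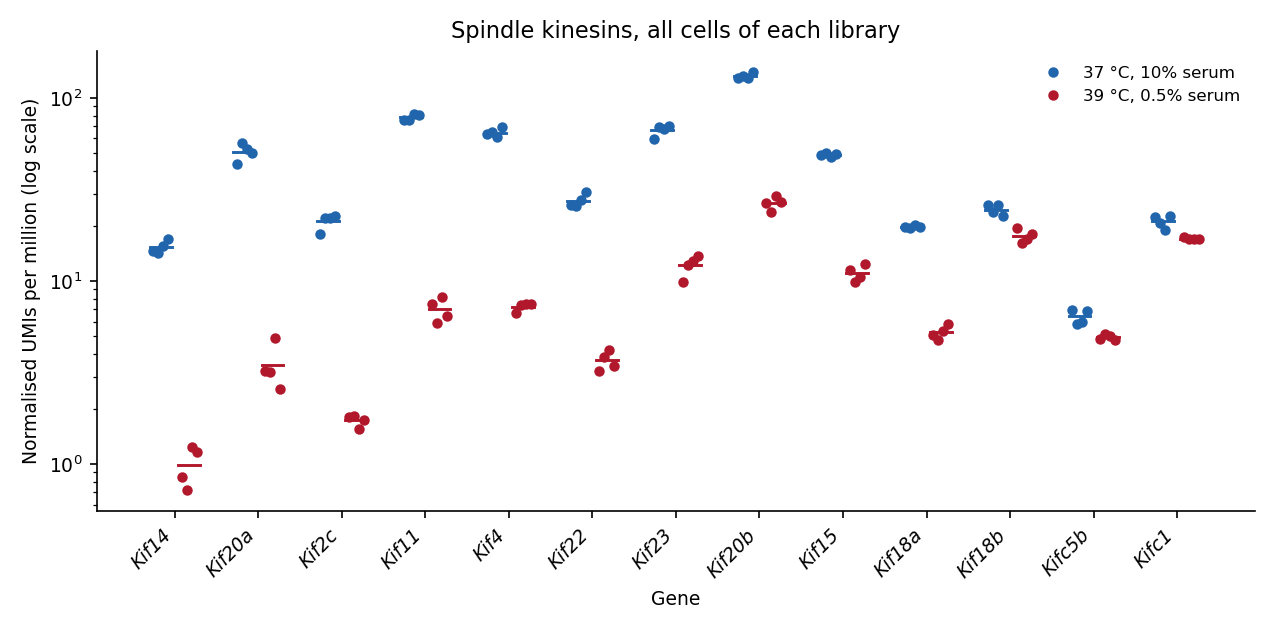
Level of each of the 13 spindle kinesins tested, in CPM of tested genes after TMM scaling (log axis), with 1 point per library and a bar at the mean of the 4 libraries of each temperature. The 39 °C points lie below the 37 °C points for every gene, by 15.1-fold for Kif14 at the left and by 1.25-fold for Kifc1 at the right.

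The partners of these motors were lower too. Of 16 listed partners, 16 were lower at an adjusted p under 0.05 and 15 by the stricter rule, against 30.5% and 3.62% of all genes tested, with a median log2 fold change of -2.73. Plk1, the mitotic kinase that Kif20a brings to the midzone, went from 40.7 ± 3.37 to 2.76 ± 0.51 CPM (log2 fold change -3.90). Aurkb, the kinase of the passenger complex, went from 43.2 ± 2.76 to 4.28 ± 0.37 CPM. Tpx2, which targets Aurora A to the spindle, went from 226 ± 10.8 to 53.2 ± 4.59 CPM. Cenpe, itself a kinesin of kinetochores but not named Kif, went from 199.8 ± 5.91 to 51.7 ± 2.95 CPM (log2 fold change -1.95). The smallest fall, of 0.80 on the log2 scale, was that of Ckap5, a microtubule polymerase used in interphase as well.

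In kinesin-1, the main plus-end motor of most cells, Kif5b was at 369, 362, 352 and 388 CPM at 37 °C and at 353, 358, 343 and 354 CPM at 39 °C. The libraries overlapped and the difference did not pass the test (log2 fold change -0.06 ± 0.05 SE, adjusted p = 0.256). The neuronal members Kif5a and Kif5c had 21 and 34 UMIs in all at 37 °C and 30 and 29 at 39 °C. At this depth no difference was detectable for them (adjusted p = 0.175 and 0.94).

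Kinesin-2 drives transport in cilia and of vesicles with the motors Kif3a, Kif3b and Kif3c and the subunit Kifap3. Kif3b was at 30.4, 27.6, 28.6 and 30.3 CPM at 37 °C and at 36.4, 37.7, 38.1 and 36.0 CPM at 39 °C. It rose without overlap (log2 fold change 0.34 ± 0.05 SE, adjusted p = 4.87e-06). Its usual partner Kif3a was at 71.3, 69.9, 69.4 and 67.7 CPM and at 83.5, 74.6, 71.8 and 65.8 CPM, which overlapped (adjusted p = 0.22).

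Kif3c was at 6.03, 7.29, 7.12 and 6.88 CPM at 37 °C and at 6.92, 8.48, 8.00 and 7.63 CPM at 39 °C (log2 fold change 0.20, adjusted p = 0.0544), and it passed without replicate 2 at 37 °C or without replicate 1 at 39 °C (log2 fold change 0.23 in both). Kifap3 was at 69.4, 68.3, 59.8 and 59.4 CPM at 37 °C and at 59.1, 58.7, 54.8 and 51.7 CPM at 39 °C. It was lower at 39 °C, against the majority of its class, by 0.20 on the log2 scale (adjusted p = 0.00734), with 0.242 CPM between the groups' nearest libraries.

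Kinesin-3 held the largest rises among the transport kinesins of at least 10 CPM. Kif13a, which carries receptors and early and recycling endosomal cargo (chr13:46749087-46929867), was at 30.0, 26.5, 28.4 and 27.3 CPM at 37 °C and at 57.6, 56.6, 53.7 and 57.4 CPM at 39 °C. The groups were far apart, a 2.01-fold rise (log2 fold change 1.00 ± 0.05 SE, adjusted p = 1.57e-12). Its paralog Kif13b (chr14:64647265-64809617) was at 19.4, 18.6, 17.9 and 17.6 CPM and at 31.8, 34.8, 31.5 and 31.2 CPM (log2 fold change 0.82 ± 0.05 SE, adjusted p = 1.26e-10).

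Kif1c, a fast vesicle and mRNA carrier (chr11:70700548-70731964), was at 64.2, 59.8, 65.4 and 64.3 CPM at 37 °C and at 88.1, 90.3, 90.1 and 91.6 CPM at 39 °C. It rose 1.42-fold (adjusted p = 6.59e-09). Kif1b, the mitochondrial and synaptic vesicle carrier, was at 103, 97.4, 98.5 and 98.6 CPM and at 116, 115, 119 and 116 CPM, a smaller rise (log2 fold change 0.23, adjusted p = 8.66e-05). Kif1a, the axonal carrier of synaptic vesicle precursors, was at 22.0, 22.3, 21.6 and 20.3 CPM and at 24.7, 24.2, 23.0 and 23.5 CPM (log2 fold change 0.15, adjusted p = 0.0199). The Kif1a call is not firm: it was lost with DESeq2 and in 4 of 8 fits that left out a library (replicates 3 and 4 at 37 °C, 1 and 2 at 39 °C), with log2 fold changes down to 0.11.

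Of the kinesin-14 transport members, Kifc3 was at 6.68, 7.56, 6.31 and 7.34 CPM at 37 °C and at 4.48, 5.41, 5.38 and 5.24 CPM at 39 °C. It was lower at 39 °C by 0.43 on the log2 scale (adjusted p = 0.000417). Kifc2 had 66 and 147 UMIs in all and was higher at 39 °C (log2 fold change 1.33 ± 0.23 SE, adjusted p = 4.75e-05), the largest fold among the kinesins that rose, though on few UMIs. Kif16b and Kif17 did not pass the test (adjusted p = 0.327 and 0.865).

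**Figure D3:**
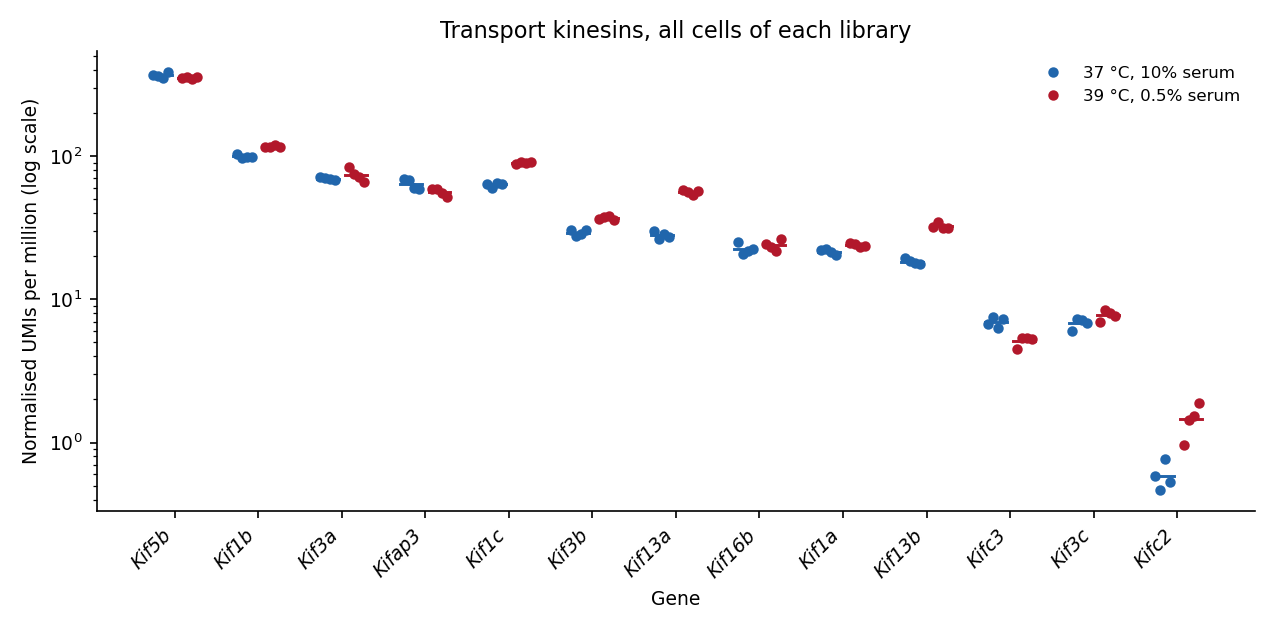
Level of each transport kinesin of at least 1 CPM, in CPM of tested genes after TMM scaling (log axis), with 1 point per library and a bar at the mean of the 4 libraries of each temperature. Kif13a, Kif13b and Kif1c stand higher at 39 °C without overlap, Kif5b overlaps, and Kifc3 and Kifap3 lie lower.

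Of 27 tested genes among the adaptors, light chains and dynein-dynactin subunits that work with transport motors, 13 were higher and 7 lower (background 31.5% and 30.5%), and their median log2 fold change was 0.13. Fez1, a kinesin-1 adaptor, went from 10.4 ± 1.33 to 32.3 ± 2.35 CPM (log2 fold change 1.62). Arl8a, the GTPase that couples lysosomes to kinesins, went from 110 ± 3.05 to 243 ± 6.66 CPM. Plekhm2, its link to kinesin-1, went from 18.3 ± 0.76 to 35.8 ± 0.77 CPM. Klc1, a kinesin light chain, was lower (38.6 ± 2.59 to 28.1 ± 0.92 CPM), and Klc4 was higher (13.5 ± 0.52 to 17.6 ± 0.62 CPM). Fez2 and Arl8b, paralogs of Fez1 and Arl8a, were lower (log2 fold changes of -0.40 and -0.14), as were Bicd1, Map7d1, Rhot2 and Trak2.

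Among the kinesins of neither class, Kif24, which acts at the mother centriole against cilium formation, was at 4.52, 4.19, 4.31 and 4.04 CPM at 37 °C and at 1.42, 2.01, 2.30 and 1.74 CPM at 39 °C. It fell by 1.16 on the log2 scale (adjusted p = 1.79e-07), the largest fall outside the spindle class. Kif2a, a depolymerase of spindle poles and of growing neurites, was at 124, 122, 119 and 126 CPM and at 97.8, 102, 102 and 98.3 CPM (log2 fold change -0.29, adjusted p = 6.83e-06). Kif21b, a regulator of microtubule growth, was at 2.09, 1.78, 1.72 and 1.37 CPM and at 1.02, 0.984, 1.17 and 1.27 CPM (adjusted p = 0.00402), while its paralog Kif21a rose from 65.3 ± 3.41 to 80.7 ± 2.94 CPM (adjusted p = 1.56e-05).

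Kif9, a motor of motile cilia, rose from 1.61 ± 0.14 to 2.86 ± 0.37 CPM. Kif27, related to the Hedgehog regulator Kif7, had 18 and 34 UMIs (log2 fold change 1.08, adjusted p = 0.0187). Kif26b was slightly higher (adjusted p = 0.0371), and Kif7, Kif1bp, Kif19a, Kif6 and Kif26a did not pass the test. The call of Kif26b was lost in 6 of 8 fits that left out a library (all but replicate 3 at 37 °C and replicate 4 at 39 °C, down to 0.17), and that of Kif27 without replicate 3 at 39 °C (0.95).

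The comparison was then made within phases of the cell cycle, since the mix of phases differed between temperatures. Phases were assigned from marker lists with the 4 Kif symbols removed (Kif11, Kif20b, Kif2c and Kif23), so no Kif symbol took part in the assignment, though Cenpe did. G1 cells were 24.0% ± 3.47 (SD, n = 4) of cells at 37 °C and 84.3% ± 1.21 at 39 °C, and G2M cells were 35.3% ± 1.397 and 4.37% ± 1.01. At 39 °C the libraries held 29 to 184 G2M cells. All cells were scored together. With each library scored by itself, 12 kinesins were lower in G1, 15 in S and 17 in G2M cells, against the 5, 9 and 10 given below. In G2M cells, 8 in place of 4 were higher. The share of all genes called under that scoring is not at hand, so these counts cannot be set against it. Values by phase below are CPM of the plain total of that phase, and fold changes come from TMM-scaled fits.

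At 37 °C the level in G2M cells was 4.31 to 165 times that in G1 cells over the 13 spindle kinesins, with a median of 18.0. The lowest ratio was that of Kifc1 and the highest that of Kif14. Over 13 transport kinesins of at least 1 CPM the same ratio was 0.588 to 1.05. At 39 °C these ranges were 2.92 to 194 and 0.377 to 1.04. The level in G1 cells was 1.89% of that in G2M cells for Kif11 at 37 °C, 0.606% for Kif14, 9.43% for Kif20a and 14.5% for Kif18b, so the genes did not keep 1 ratio between phases.

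Within G2M cells, 10 of the 38 kinesins tested were lower and 4 higher at 39 °C (background 16.5% and 13.7% of 13785 genes). The count of higher ones was below its share over all genes. Of the 13 spindle kinesins, 9 were lower and 0 higher, and their median log2 fold change was -0.83, against -0.03 over all genes. Kif2c, Kif20a and Kif14 had log2 fold changes of -1.17, -1.14 and -1.10, Kif22 and Kif4 of -0.95 and -0.94, and Kif20b of -0.59. Kif14 was at 34.0, 32.9, 37.5 and 37.2 CPM in G2M cells at 37 °C and at 24.5, 9.92, 20.7 and 17.7 CPM at 39 °C. Kif15, Kif18b, Kifc1 and Kifc5b did not pass the test in G2M cells (log2 fold changes of 0.12, 0.18, 0.16 and 0.27).

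Kif11 in G2M cells was at 176, 175, 195 and 171 CPM at 37 °C and at 189, 84.8, 111 and 85.6 CPM at 39 °C. Replicate 1 at 39 °C, which held 29 G2M cells and 85 Kif11 UMIs in them, lay within the 37 °C range (after TMM scaling it was at 176 CPM, against 177 to 198 CPM at 37 °C). The log2 fold change was -0.83 ± 0.12 SE (adjusted p = 4.27e-07), and -1.01 without that library. Kif15 in the same library was at 200 CPM, against 83.9 to 103 CPM in the other 39 °C libraries. All 16 partners of the spindle kinesins were also lower in G2M cells, against 16.5% of all genes, though 12 of them, Tpx2 and Aurkb included, were among the genes that assigned the phase.

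G2M cells at 39 °C had lower G2M scores, with library medians of 0.23 to 0.40 against 0.50 to 0.55 at 37 °C. G2M cells with a score of at least 0.4 numbered 14 to 56 per library at 39 °C. Among cells of that score, 7 of the 36 kinesins tested were lower (6 spindle kinesins and Kif5b) and 0 higher, against 7.47% and 5.08% of 13252 genes. There Kif14 had a log2 fold change of -0.78 (adjusted p = 0.00493) and Kif2c of -0.62 (adjusted p = 0.00838), Kif20a of -0.40 (adjusted p = 0.0468), and Kif11 of -0.28 (adjusted p = 0.072). The limit was chosen after the data were seen.

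G1 cells at 39 °C had lower S scores, with library medians of -0.179 to -0.160 against -0.121 to -0.112 at 37 °C. The part of this in the values below was not tested. Within G1 cells, 5 of the 40 kinesins tested were lower and 8 higher at 39 °C, both below the shares over all genes (22.4% and 24.7% of 14705). Of the spindle kinesins, Kif20a, Kif11 and Kif4 were lower and Kif18b, Kifc5b and Kifc1 were higher, the class median being -0.33 on the log2 scale against 0.04 over all genes. Kif20a in G1 cells was at 5.88, 14.6, 9.66 and 13.03 CPM at 37 °C and at 0.946, 0.843, 1.04 and 0.747 CPM at 39 °C (log2 fold change -3.51 ± 0.24 SE, adjusted p = 6.11e-11). Its libraries at 37 °C spread over a wide range and all lay above those at 39 °C. The Kif4 call was lost without any of 4 libraries (replicates 1 and 2 at 37 °C, replicates 3 and 4 at 39 °C). Without replicate 2 at 37 °C, 3 kinesins in all were lower in G1 cells, Kifc3 (-0.25) being no longer among them.

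Kif18b went the other way in G1 cells, from 8.95, 6.17, 5.97 and 5.77 CPM at 37 °C to 18.1, 12.9, 14.9 and 15.8 CPM at 39 °C. It rose in every library (log2 fold change 1.16 ± 0.14 SE, adjusted p = 3.87e-07). Kifc1 in G1 cells went from 10.8, 8.23, 8.61 and 6.70 CPM to 15.6, 15.2, 15.2 and 14.8 CPM (log2 fold change 0.81 ± 0.11 SE, adjusted p = 2.24e-06), and Kifc5b rose by a log2 fold change of 1.04 (adjusted p = 0.000309). At 39 °C, G1 cells held 73.1% of the Kif18b UMIs and 75.3% of the Kifc1 UMIs, against 5.998% and 8.85% at 37 °C. Of the UMIs of all genes, G1 cells held 85.1% at 39 °C and 21.1% at 37 °C, more than of either gene at both temperatures. For Kif11 and Kif20a, G1 cells at 39 °C held 17.5% and 21.4%.

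Cells called S at 39 °C had lower S scores, with library medians of 0.084 to 0.105 against 0.205 to 0.240 at 37 °C. The part of this in the values below was not tested. In S cells, 9 of the 38 kinesins tested were lower and 7 higher, near the shares over all genes (23.5% and 20.2% of 13747). Kif18b, Kifc1 and Kifc5b were higher there too (log2 fold changes of 0.69, 0.76 and 0.79), and Kif20a, Kif14, Kif4, Kif11, Kif22 and Kif20b were lower. The Kif18b difference in S cells was -0.0433 on the log2 scale when each library was scored for phase by itself. The transport kinesins Kif13a, Kif13b and Kif1c were higher in each phase without overlap. Kif13a had log2 fold changes of 0.91 in G1, 0.72 in S and 0.75 in G2M cells. Among G2M cells with a score of at least 0.4 the calls of these genes were lost, with log2 fold changes of 0.36 for Kif13a (adjusted p = 0.265), 0.38 for Kif13b (adjusted p = 0.429) and 0.32 for Kif1c (adjusted p = 0.133). Kif5b was lower in S and G2M cells (by 0.25 and 0.32 on the log2 scale), while its log2 fold change in G1 cells was 0.00. Without replicate 3 at 39 °C, 2 kinesins in place of 4 were higher in G2M cells, Kif1c (0.28) and Kif21a (0.26) being lost.

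**Figure D4:**
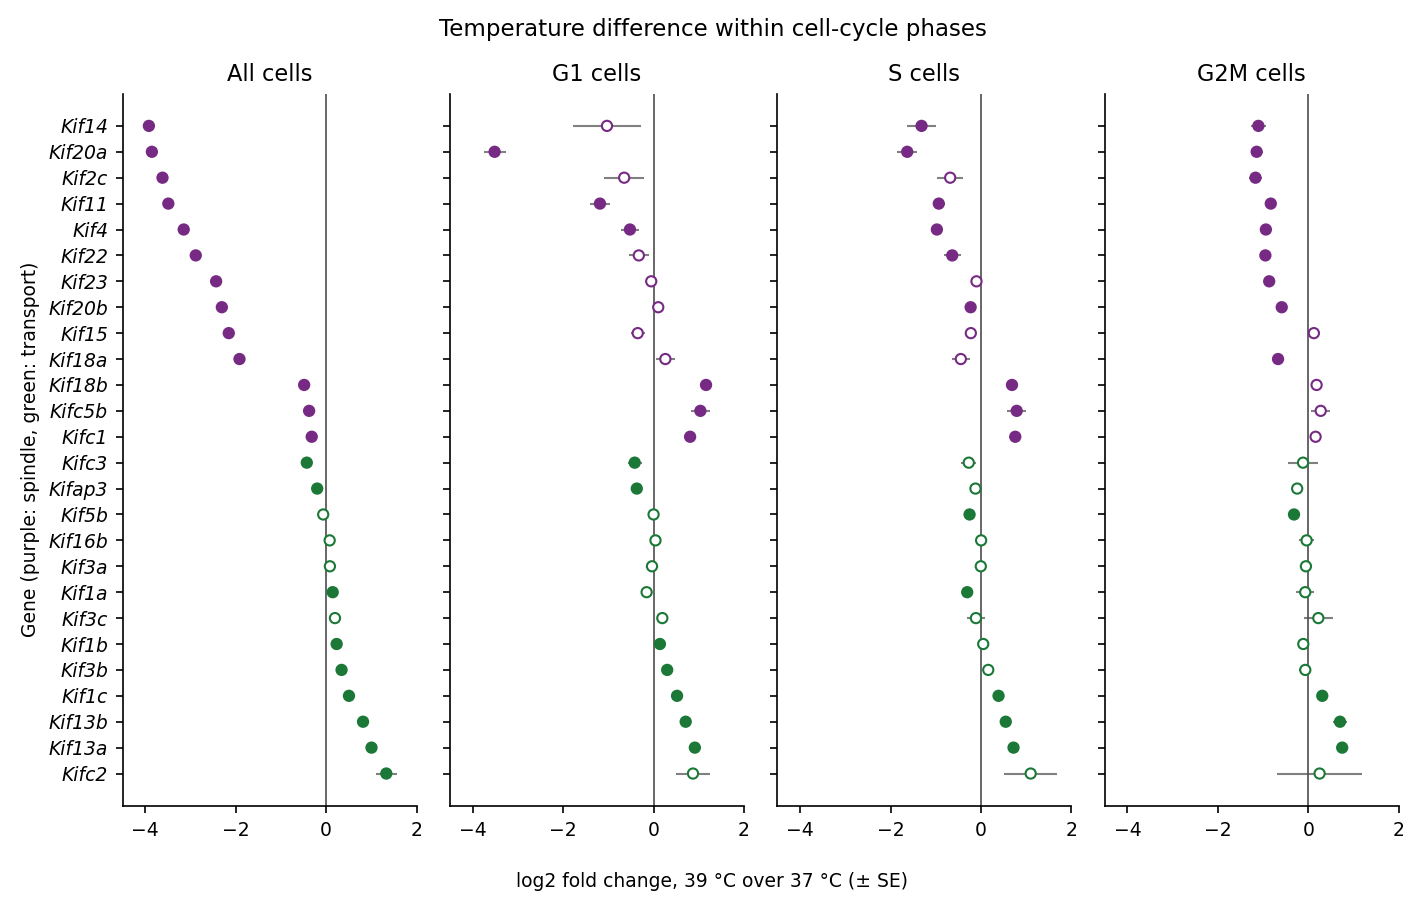
Log2 fold change at 39 °C over 37 °C with its SE for the spindle (purple) and transport kinesins (green) of at least 1 CPM, in all cells and within each phase. Filled points passed an adjusted p under 0.05. The spindle points lie far to the left in all cells and nearer to 0 within phases, with Kif18b, Kifc5b and Kifc1 to the right in G1 and S cells and Kif20a at -3.51 in G1 cells.

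Whether the temperature difference itself differed between G2M and G1 cells was tested with an interaction term over 14172 genes, of which 3.75% had a lower and 3.05% a higher difference in G2M cells. Among the 38 kinesins tested it was lower for 6 and higher for 1. Kif20a had the higher term, 2.42 ± 0.22 SE on the log2 scale (adjusted p = 5.74e-14), its fall being larger in G1 cells. The term was -0.93 for Kif18b, -0.90 for Kif18a, -0.79 for Kif23, -0.67 for Kif20b, -0.61 for Kifc1 and -0.27 for Kif5b. The Kif18a term did not pass without replicate 3 at 37 °C or without replicates 3 or 4 at 39 °C (-0.69, -0.73 and -0.81), nor the Kifc1 term without replicate 4 at 37 °C (-0.50). No transport kinesin other than Kif5b passed.

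The mix of phases was also held fixed by weighting the 37 °C level in each phase by the 39 °C share of UMIs from that phase (85.1% G1, 10.6% S and 4.26% G2M, against 21.1%, 40.5% and 38.4% at 37 °C). This description was added after the data were seen. Over the spindle kinesins the median log2 change from the mix alone was -2.11, and the measured 39 °C level differed from the reweighted one by a further median of -0.31. Kif11 went from 77.6 CPM to 12.6 CPM by reweighting and was measured at 7.07 ± 1.05 CPM (SD, n = 4). Kif20a went from 50.2 to 15.1 CPM and was measured at 3.50 ± 0.97 CPM. Kif18a went from 19.6 to 5.37 CPM and was measured at 5.29 ± 0.44 CPM, within its spread.

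Kif18b went from 24.3 to 9.02 CPM by reweighting and was measured at 17.8 ± 1.65 CPM, and Kifc1 from 20.9 to 10.2 CPM and was measured at 17.2 ± 0.39 CPM. All 4 libraries at 39 °C lay below the reweighted level for 8 of 13 spindle kinesins and above it for 3 (Kif18b, Kifc1 and Kifc5b), against 37.8% and 41.4% of 11812 genes of at least 1 CPM. For 13 transport kinesins of at least 1 CPM, all 4 libraries lay below for 4 (30.8%) and above for 6 (46.2%). The widest gap among them on the log2 scale, 0.89, was that of Kif13a, which reweighting moved from 27.7 to 30.6 CPM, against 56.9 ± 2.22 CPM measured. With each library scored for phase by itself, the mix alone gave a median of -0.82 and the further difference was -1.58, so the division between the parts rests on how phases were assigned.

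**Figure D5:**
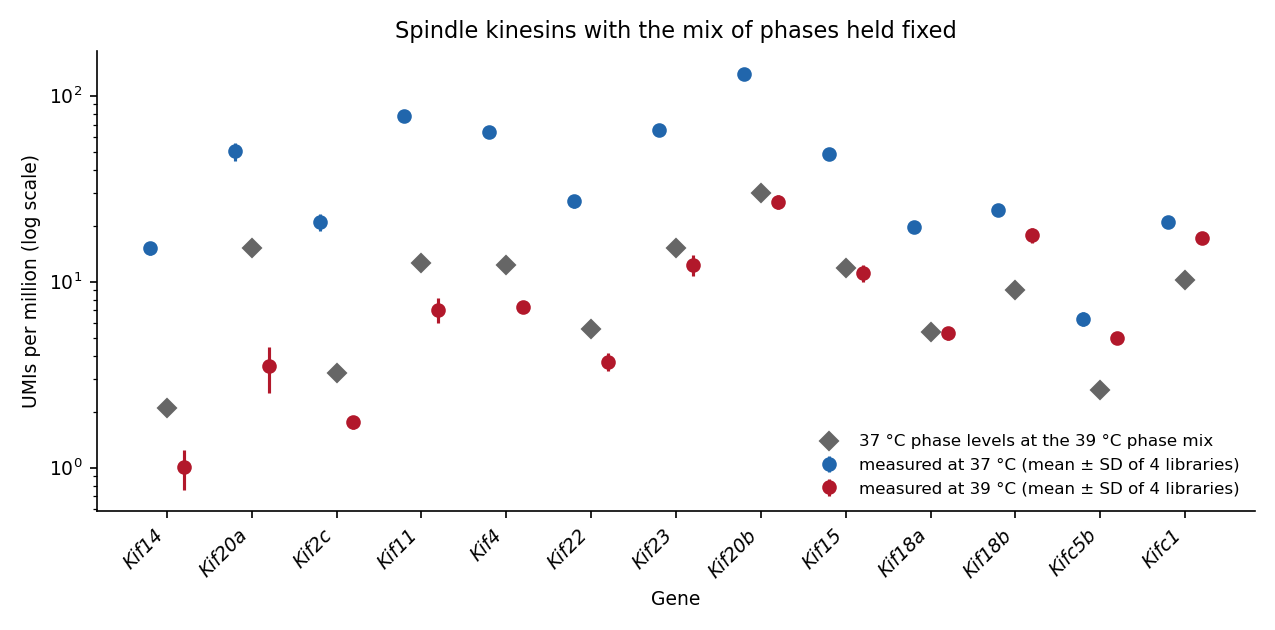
For each spindle kinesin, the level measured at 37 °C (blue) and at 39 °C (red), each as the mean ± SD of 4 libraries, and the 37 °C phase levels weighted by the 39 °C mix of phases (grey diamonds), in CPM of the plain totals (log axis). The red points lie below the diamonds for Kif14, Kif20a, Kif2c, Kif11, Kif4, Kif22, Kif23 and Kif20b and above them for Kif18b, Kifc5b and Kifc1. For Kif15 and Kif18a they lie below by less than the SD.

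Across single cells, each cell was thinned to 2000 UMIs, which left out 119 shallower cells at 37 °C and 310 at 39 °C. At least 1 spindle kinesin UMI was then found in 44.1% ± 2.26 (SD, n = 4) of cells at 37 °C and 17.7% ± 0.43 at 39 °C. UMIs of 3 or more spindle kinesins were found in 12.2% ± 0.63 and 0.83% ± 0.17. A transport kinesin UMI was found in 78.9% ± 1.03 and 81.1% ± 0.43. Without thinning, the shares with a spindle kinesin UMI were 75.6% and 53.2%. No cell type that should lack these genes was at hand as a measure of free RNA, and its part in these shares was not tested.

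Within G2M cells, 82.6% ± 1.34 of cells at 37 °C and 73.9% ± 9.29 at 39 °C had a spindle kinesin UMI, ranges that overlapped, while 33.1% ± 1.95 and 15.7% ± 1.57 had UMIs of 3 or more. Within G1 cells, 12.6% ± 1.69 and 13.6% ± 0.65 had any. Of thinned G1 cells, 0.92% ± 0.45 at 37 °C and 2.95% ± 0.40 at 39 °C had a Kif18b UMI. Of the 232 G1 cells with a Kif18b UMI at 39 °C, 8.10% ± 4.71 also had a UMI of 1 of the 10 spindle kinesins other than Kif18b, Kifc1 and Kifc5b, against 7.48% ± 0.11 of the 7770 without one, so in G1 cells Kif18b and the other spindle kinesins were not seen together more often beyond the spread. In G2M cells at 37 °C these shares were 85.2% ± 4.35 and 80.0% ± 2.03. The libraries ran from 82.6% to 91.7% and from 77.7% to 82.4%, which did not overlap. In S cells at 37 °C the shares were 39.04% ± 5.95 of 87 cells and 24.7% ± 2.18. The libraries ran from 34.8% to 47.6% and from 22.0% to 26.8%, which did not overlap either. At 39 °C the ranges overlapped in S cells (means of 21.25% and 19.8%) and in G2M cells (71.8% and 66.4%). With Kifc1 in place of Kif18b, the ranges were likewise apart in S and G2M cells at 37 °C and overlapped in both at 39 °C.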

How the data were processed

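UMI counts of 8 libraries were analysed. Per the labels and methods, cells were captured with the Chromium 3' V3 kit, and the authors aligned reads to mm10 with Cell Ranger 3.0.1 and deposited whole-number counts per gene and cell, not normalized. This counting uses the sense strand and drops reads that map to more than 1 gene. Cells over 15% mitochondrial UMIs, over 6000 or under 200 genes were left out here. The upper limit is the step against doublets, and no doublet caller was run. At most 5 barcodes were shared by any pair of libraries, and pairs within a temperature differed by more than counting noise.

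Counts were summed per library, or per library and phase (Seurat 5.3.0, 42 S and 48 G2M genes), because the library is the unit of replication. Tests covered genes averaging 1 count or more per sum and were run with edgeR 4.0.16 (TMM, quasi-likelihood, temperature only) in R 4.3.3, adjusted by Benjamini-Hochberg over all genes tested. The interaction fit held 24 sums of library and phase with library as a block. Genes were given per library by rule: the 4 largest falls and 3 largest rises (adjusted p under 0.05, at least 10 CPM, no overlap), the Kif1, Kif3 and Kif5 sets, and members against the majority of their class. The genes given per library within phases, the promoter windows printed, the reweighting and the G2M score limit were chosen after values were seen. The symbols, classes and lists were chosen with earlier results of these data known.

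On simulated counts the all-cell fit recovered 200 of 200 changed genes with 21 false calls among 15599 genes, and the G2M fit 98 of 100 at a log2 change of 1.5. The interaction fit recovered 179 of 200 at that size, with 7 false calls among 14053 genes. The planted log2 changes were of 1.5 or 2.5 only, in genes with counts well above the limit for testing. Recovery of smaller changes, or of changes in genes of few UMIs, was not simulated. The interaction counts were drawn with the same spread for every gene and no difference between libraries beyond depth. Alternatives were other scalings and filters, DESeq2 1.42.0, a replicate block, other cell filters, phase lists and thinning, and each library left out. Gene positions are from GENCODE M21.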

Additional observations from a re-analysis of the deposited data

Results flagged for a closer look

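In 3 of 68 groups of 4 libraries, 1 library stood apart from the other 3 by its gap over the range of the group, where chance gives about 1 in 20. Kif2c was at 18.1 CPM in replicate 1 at 37 °C, against 22.0 to 22.7 CPM in the others. Kif4 was at 6.64 CPM in replicate 1 at 39 °C, against 7.38 to 7.48 CPM. Kif13b was at 34.8 CPM in replicate 2 at 39 °C, against 31.2 to 31.8 CPM. None of these values reached the libraries of the other temperature.

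By the edgeR interaction term, the temperature difference differed between G2M and G1 cells for 7 of the 38 kinesins tested. The term was lower for 6 and higher for 1, against 3.75% and 3.05% of 14172 genes. It was 2.42 on the log2 scale for Kif20a (adjusted p = 5.74e-14), the midzone motor, whose 37 °C level in G1 cells ran from 5.88 to 14.6 CPM. It was -0.79 for Kif23 (adjusted p = 4.36e-05) and -0.67 for Kif20b (adjusted p = 3.78e-06), also motors of cytokinesis. The kinetochore motor Kif18a had -0.90 (adjusted p = 0.00909) and its relative Kif18b -0.93 (adjusted p = 3.87e-05). Kifc1 had -0.61 (adjusted p = 0.0084), and the transport motor Kif5b -0.27 (adjusted p = 0.00042). The sequence that Kifc1 shares with Kifc5b stands beside these values. So do the lower G2M scores of G2M cells and the lower S scores of G1 cells at 39 °C. The part of each was not tested.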

How the results depend on the processing

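The all-cell counts (10 lower, 0 higher) stayed the same under other scalings, filters and DESeq2, and were 18 and 11 when an adjusted p under 0.05 alone was asked for. Scoring each library for phase by itself gave other counts: 12 kinesins were lower in G1, 15 in S and 17 in G2M cells, 8 were higher in G2M cells, 13 had an interaction term, Kif18b in S cells turned to -0.0433 on the log2 scale (log2 fold change of Kif18b), and the medians from the mix of phases and beyond it were -0.82 and -1.58. That scoring put 56.2% of 39 °C cells in G1 and 15.5% in G2M. The share of all genes called under it is not at hand, so its counts have no background beside them. Of G2M cells with a score of at least 0.4, 0 kinesins were higher. With Kif2a and Kif24 in the spindle class its median was -2.31. Shares of cells depend on depth: at 5000 UMIs per cell they were 62.7% and 35.1% with a spindle kinesin, 29.9% and 3.77% with 3 or more, and 97.3% and 98.2% with a transport kinesin (37 °C, then 39 °C), and without thinning 75.6% and 53.2%, 46.1% and 10.3%, and 99.1% and 98.2%. With no cell filter the share with a spindle kinesin at 39 °C was 18.4%, and that with 3 or more at 37 °C 12.9%. Apart from the phase scoring and depth, the cause was not tested.

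Leaving out each library in turn gave 3 to 5 kinesins lower and 7 to 9 higher in G1 cells, 8 to 10 lower and 7 to 8 higher in S cells, 10 lower and 2 to 4 higher in G2M cells, and 6 to 10 interaction terms. In all cells it gave 10 lower and 0 higher, with spindle medians of -2.50 to -2.37. Over single genes, 1259 of the values under an alternative kept their direction and side of the threshold, 63 lost the call, 6 gained it and 1 turned. Replicate numbers did not pair the libraries (correlations of -0.12, -0.12, -0.09 and 0.28), and a replicate block gave 10 lower and 0 higher in all cells and changed no call. Scaling moved the median of all genes between 0.003 and 0.051.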
